A study of Homo sapiens with 20 samples.

Results

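The SLC7 genes encode amino acid transporters of the plasma membrane, and 8 genes were followed here: SLC7A1, SLC7A2, SLC7A5, SLC7A6, SLC7A7, SLC7A8 and SLC7A11, and their partner SLC3A2. They were taken by symbol, 8 of 28051 named genes in the RNAseq files, together with the 9 of 8286 ATACseq regions whose gene column lists one of them. SLC7A2 was chosen by its RNA level, which was close to 0 in Cas9 control, so its genotype difference is described without a test. HL60 is an established human acute myeloid leukemia cell line that matures towards neutrophils under all-trans retinoic acid (ATRA). Cas9 control cells expressed Cas9, and in cells labelled HK3-null a lentiviral vector with Cas9 and guide RNA had targeted hexokinase 3, with the same knockout label in the titles of all HK3-null libraries. The methods call the samples biological replicates, but they are not known to be separate clones, so p values measure the spread between these samples. Both genotypes received 1 µM ATRA or 0.01% DMSO for 36 h. RNAseq had 3 replicates and ATACseq 2 replicates in each of the 4 groups, 12 and 8 libraries in all.

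SLC7 transporters fall into cationic and light-chain types. SLC7A1 and SLC7A2 (CAT1 and CAT2) carry arginine, lysine and ornithine on their own. The others pair with a heavy chain, which for the members here is SLC3A2 (CD98), and exchange one amino acid for another: SLC7A5 and SLC7A8 (LAT1 and LAT2) carry leucine and other large neutral amino acids, SLC7A6 and SLC7A7 (y+LAT2 and y+LAT1) exchange cationic for neutral amino acids, and SLC7A11 (xCT) takes up cystine, the source of cysteine for glutathione, in exchange for glutamate. Growing leukemia cells rely on such uptake for protein synthesis, and several of these genes are known targets of the amino acid response and of the oxidative stress response.

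The RNA values are counts that the authors scaled between libraries, called normalized counts here, and they summed to 29053838 to 31548189 per library. Depth before scaling is not given by these values. Cas9 control DMSO replicate 1 had more genes above 0 (16750) than the other libraries (15031 to 15801). The fitted RNA changes of the members and the counts of members called were also computed without it. Chromosome medians, neighbours, marker sums and correlations were not. Markers of promyelocytes and neutrophils were high throughout, with a summed level of 570067 to 849535 normalized counts over 10 genes. HK3, the targeted gene, did not have less RNA in the libraries labelled HK3-null: it had 90, 65 and 105 normalized counts in Cas9 control DMSO and 344, 302 and 346 in HK3-null DMSO, and 1305, 1298 and 1850 against 1384, 1285 and 1975 in ATRA. Counts per gene do not check a small insertion or deletion, so HK3-null is used below as the name on the label.

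Sequence windows around the regulatory letters are shown first, since they place the family next to the pathways named above. Letters of the amino acid response element, TGATGNAA, and of the antioxidant response element, TGACNNNGC, were searched on both strands in RefSeq promoters (GRCh38.p14, 250 bases before to 50 after each start). At least 1 promoter was listed for 6 of the 8 members, and no promoter was found under SLC7A2 and SLC7A11. The amino acid response letters lay in 1 promoter of SLC7A1 and in 1 of the 3 promoters of SLC3A2, against 3.62% of all 35116 promoters. The antioxidant letters lay in the only listed promoter of SLC7A1, of SLC7A5 and of SLC7A6. They also lay in 1 of the 3 promoters of SLC7A7 and 1 of the 3 of SLC3A2, and in no promoter of SLC7A8. Of all promoters 13.3% held them. These shares count promoters, and a gene with several promoters had more chances to match. The promoter at the start of the MANE Select transcript held neither set of letters for SLC3A2 or SLC7A7, whose matches lay in other promoters. In the windows below, written 5′ to 3′ on the strand of the gene, capitals mark the match, and neither motif overlaps the other.
SLC7A1 amino acid response letters, minus strand, chr13:29595663-29595692: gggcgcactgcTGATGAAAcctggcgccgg
SLC3A2 amino acid response letters, plus strand, chr11:62881725-62881748: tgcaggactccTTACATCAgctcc
SLC7A1 antioxidant letters, minus strand, chr13:29595755-29595784: gtgcccggcggTGACGCGGCcgagcgggcc
SLC3A2 antioxidant letters, plus strand, chr11:62881651-62881680: acgagggtgggTGACTCAGCgtcctccttc
SLC7A5 antioxidant letters, minus strand, chr16:87869491-87869520: ggcggggttccTGACGCAGCtgcgggcggc
A match describes the letters alone and says nothing about binding.

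The levels of the members differed by orders of magnitude. On the scale of normalized counts per kb of the MANE Select transcript, SLC3A2 ranked first in every group, with 3026 ± 142 in Cas9 control DMSO (SD, n = 3), 2013 ± 187 in Cas9 control ATRA, 2420 ± 63.3 in HK3-null DMSO and 2301 ± 241 in HK3-null ATRA. SLC7A5 and SLC7A1 came next in every group. In Cas9 control DMSO they had 2587 ± 292 and 1784 ± 170, and SLC7A6 followed with 587 ± 12.7. SLC7A8 was lowest of the 7 genes other than SLC7A2 in every group, at 14.5 ± 2.39 to 41.5 ± 9.73 per kb. Some neighbours in the order overlapped in range: SLC7A11 and SLC7A7 in both DMSO groups, SLC7A7 and SLC7A8 in HK3-null DMSO, SLC7A1 and SLC7A5 in both ATRA groups, SLC7A1 and SLC7A6 in HK3-null ATRA, and SLC7A7 and SLC7A2 in HK3-null ATRA. In HK3-null DMSO, SLC7A2 came just after SLC7A6, with 296 ± 5.73 per kb, above SLC7A11 at 58.2 ± 10.7.

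**Figure D1:**
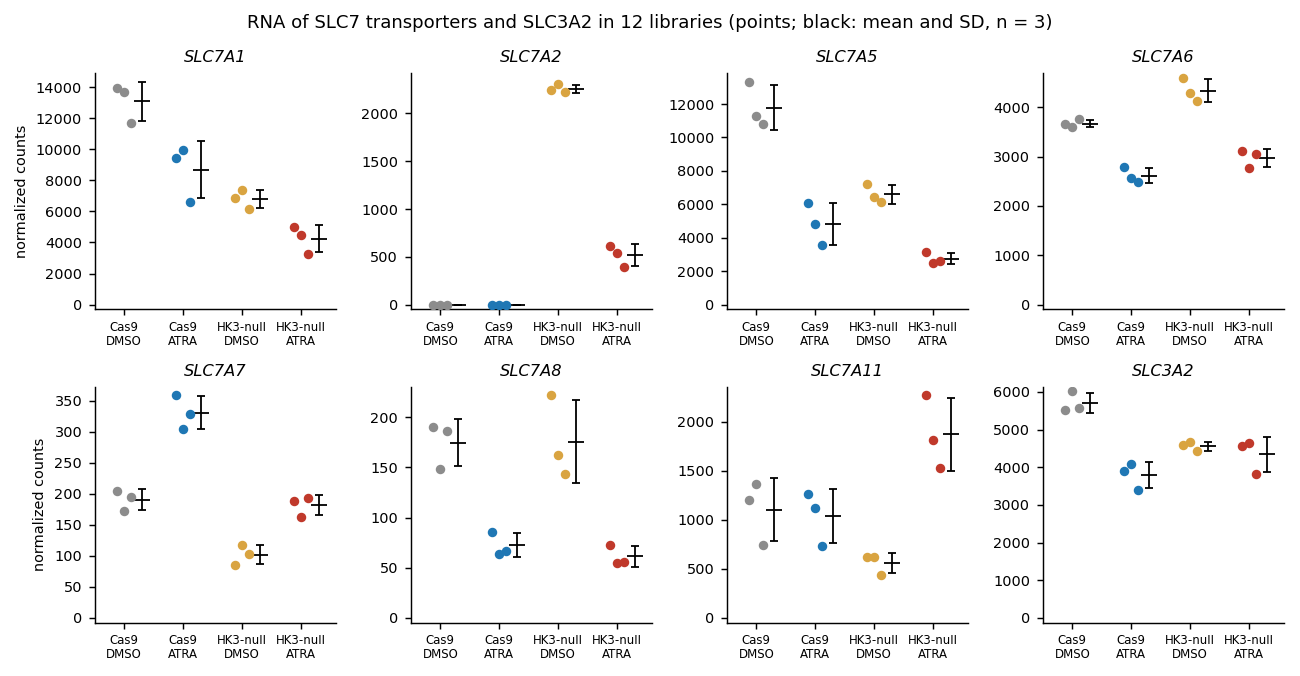
Normalized counts (vertical axes from 0, one panel per gene) of the 8 members in each of the 12 RNAseq libraries, with the mean and SD of each group (n = 3). SLC7A2 lies at 0 or 1 in all 6 Cas9 control libraries and between 391 and 2305 in the libraries labelled HK3-null, and SLC7A11 is highest in HK3-null ATRA.

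SLC7A2, the cationic transporter CAT2 (chromosome 8, 17497088 to 17570566, plus strand, GRCh38), was the member that set the genotypes apart by description. It had 0, 0 and 1 normalized counts in Cas9 control DMSO and 0, 1 and 0 in Cas9 control ATRA. The libraries labelled HK3-null had 2240, 2305 and 2222 in DMSO and 618, 540 and 391 in ATRA. The groups of the 2 genotypes did not overlap under either treatment. Summed over 3 libraries, the levels were 6767 in HK3-null against 1 in Cas9 control in DMSO and 1549 against 1 in ATRA. No fold is given against Cas9 control, or for ATRA within it, since its libraries were at 0 or 1.

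Among libraries labelled HK3-null, SLC7A2 was lower in ATRA than in DMSO in each replicate number, at 0.176 to 0.276 of the DMSO value. The fitted log2 fold change was −2.15 (4.45-fold lower), and it did not pass in the fit of all 12 libraries (standard error 2.86, adjusted p = 0.566, limma). In that fit a count of 0 stands at the log2 of 0.001 and a count of 1 at 0, so the Cas9 control libraries enter its spread with that gap. With 1 added to each normalized count the adjusted p was 0.000144, and with only the 2 HK3-null groups in the fit it was 0.000141 (limma). Over all 20 settings the adjusted p ranged from 0.000141 to 0.676.

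The other cationic transporter, SLC7A1 (CAT1; chromosome 13, 29509414 to 29595688, minus strand), was lower in ATRA and lower in the libraries labelled HK3-null. Its normalized counts were 13957, 13670 and 11665 in Cas9 control DMSO, 9467, 9980 and 6590 in Cas9 control ATRA, 6853, 7354 and 6175 in HK3-null DMSO and 4983, 4508 and 3261 in HK3-null ATRA. Groups did not overlap in any of the 4 comparisons. SLC7A1 fell under ATRA 1.53-fold in Cas9 control (log2 fold change −0.61, standard error 0.17, adjusted p = 0.0155, limma) and 1.62-fold in HK3-null (−0.70, standard error 0.17, adjusted p = 0.00631). The first of these did not pass without Cas9 control ATRA replicate 3 (log2 fold change −0.43, adjusted p = 0.0577), without Cas9 control DMSO replicate 1 (−0.56, adjusted p = 0.054) or without Cas9 control DMSO replicate 2 (−0.58, adjusted p = 0.0507). Between genotypes it was 1.93-fold lower in HK3-null DMSO (−0.95, standard error 0.17, adjusted p = 0.000758) and 2.04-fold lower in HK3-null ATRA (−1.03, adjusted p = 0.000365).

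The chromosomes of the cationic transporters moved as a whole between the genotypes. The median log2 difference of HK3-null against Cas9 control in DMSO was −0.57 over 243 tested genes of chromosome 13 and 1.10 over 427 tested genes of chromosome 8, while it lay between −0.01 and 0.08 on the chromosomes of the other 6 members. Of the 6 tested genes within 1 Mb of SLC7A1, all 6 were below 0 in both treatments, with medians of −0.88 in DMSO and −0.79 in ATRA. Of the 6 tested genes within 1 Mb of SLC7A2, all 6 were called higher in both treatments, with medians of 1.05 and 1.23. With the median of its chromosome subtracted, SLC7A1 had a log2 fold change of −0.38 in DMSO and did not pass (adjusted p = 0.0942, limma), while in ATRA it had −0.46 and passed (adjusted p = 0.0422, limma). The part of the chromosome-wide difference in the genotype values of SLC7A1 and SLC7A2 was not tested.

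**Figure D2:**
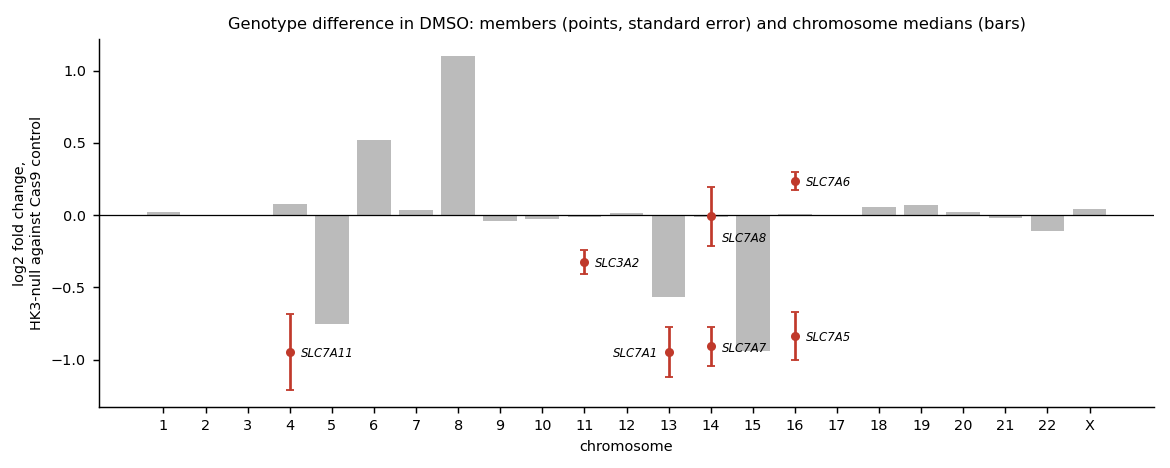
Log2 fold change of HK3-null against Cas9 control in DMSO (vertical axis) by chromosome (horizontal axis): grey bars are medians over the tested genes of a chromosome, red points are members with their standard error, and SLC7A2 is left out. SLC7A1 lies at −0.95 on chromosome 13, whose median is −0.57, while SLC7A5, SLC7A7 and SLC7A11 lie at −0.83 to −0.95 on chromosomes whose medians are near 0.

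The leucine transporters SLC7A5 and SLC7A8 had the largest falls under ATRA that passed the test. SLC7A5 (LAT1; chromosome 16, 87830023 to 87869507, minus strand) had 13298, 11257 and 10800 normalized counts in Cas9 control DMSO and 6075, 4799 and 3556 in Cas9 control ATRA. In the libraries labelled HK3-null it had 7238, 6413 and 6164 in DMSO and 3118, 2518 and 2583 in ATRA. Its highest ATRA library was below its lowest DMSO library in each genotype. The fall was 2.50-fold in Cas9 control (log2 fold change −1.32, standard error 0.17, adjusted p = 8.02e-05, limma) and 2.42-fold in HK3-null (−1.27, adjusted p = 6.72e-05). SLC7A5 was also 1.78-fold lower in HK3-null than in Cas9 control in DMSO (−0.83, adjusted p = 0.00126) and 1.72-fold lower in ATRA (−0.79, adjusted p = 0.00166). Its near-identical pseudogenes SLC7A5P1 and SLC7A5P2 held 27.7 to 115.3 normalized counts per group on average, and reads shared with them could be split.

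SLC7A8 (LAT2; chromosome 14, 23125295 to 23183660, minus strand) was a low transcript with 190, 148 and 186 normalized counts in Cas9 control DMSO and 86, 64 and 67 in Cas9 control ATRA. HK3-null DMSO had 222, 162 and 143 and HK3-null ATRA 73, 55 and 56. Treatment separated the libraries without overlap in both genotypes, and genotype did not separate them under either treatment. SLC7A8 fell under ATRA 2.42-fold in Cas9 control (log2 fold change −1.28, standard error 0.20, adjusted p = 0.00043, limma) and 2.84-fold in HK3-null (−1.51, adjusted p = 8.45e-05). Its genotype differences were −0.01 in DMSO (standard error 0.20, adjusted p = 0.978) and −0.24 in ATRA (adjusted p = 0.331).

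The y+LAT light chains moved in opposite directions under ATRA. SLC7A6 (y+LAT2; chromosome 16, 68264526 to 68301819, plus strand) had 3663, 3593 and 3751 normalized counts in Cas9 control DMSO, 2790, 2557 and 2489 in Cas9 control ATRA, 4581, 4294 and 4130 in HK3-null DMSO and 3109, 2765 and 3046 in HK3-null ATRA. It fell 1.41-fold under ATRA in Cas9 control (log2 fold change −0.49, standard error 0.06, adjusted p = 8.93e-05, limma) and 1.46-fold in HK3-null (−0.54, adjusted p = 2.52e-05). SLC7A6 was the one member other than SLC7A2 that was higher in HK3-null in DMSO, by 1.18-fold (0.24, adjusted p = 0.00704). In ATRA the genotypes overlapped, and the difference of 0.19 (adjusted p = 0.0234) did not pass without Cas9 control ATRA replicate 2 (0.17, adjusted p = 0.0698), Cas9 control ATRA replicate 3 (0.15, adjusted p = 0.0799), HK3-null ATRA replicate 1 (0.15, adjusted p = 0.0842) or HK3-null ATRA replicate 3 (0.17, adjusted p = 0.0632), or when only the 2 groups compared were fitted (adjusted p = 0.0695). SLC7A6OS, which overlaps SLC7A6, did not pass in any of these comparisons (adjusted p = 0.112 to 0.618).

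SLC7A7 (y+LAT1; chromosome 14, 22773222 to 22815435, minus strand) was the member that rose under ATRA in both genotypes. Its normalized counts went from 204, 172 and 195 to 359, 305 and 328 in Cas9 control and from 86, 117 and 103 to 188, 163 and 193 in HK3-null. Every ATRA library was above every DMSO library of its genotype, and every HK3-null library was below every Cas9 control library of its treatment. The rise was 1.74-fold in Cas9 control (log2 fold change 0.80, standard error 0.14, adjusted p = 0.00072, limma) and 1.79-fold in HK3-null (0.84, adjusted p = 0.000352). HK3-null was 1.88-fold lower in DMSO (−0.91, adjusted p = 0.000162) and 1.82-fold lower in ATRA (−0.87, adjusted p = 0.000199).

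SLC7A11, the cystine transporter xCT (chromosome 4, 138164097 to 138242349, minus strand), rose under ATRA in HK3-null and had no change that passed in Cas9 control. Its normalized counts were 1198, 1366 and 744 in Cas9 control DMSO and 1267, 1124 and 729 in Cas9 control ATRA, which overlapped. In the libraries labelled HK3-null they were 621, 620 and 442 in DMSO and 2267, 1818 and 1525 in ATRA, so that DMSO lay below and ATRA above every Cas9 control library. The log2 fold change under ATRA was −0.08 in Cas9 control (standard error 0.26, adjusted p = 0.849, limma) and 1.74 in HK3-null, a 3.33-fold rise (adjusted p = 0.000203). The responses differed by 1.81 on the log2 scale (standard error 0.37, adjusted p = 0.0106 for the interaction), and this passed without each library in turn (adjusted p = 0.00369 to 0.0295). Genotype differences of SLC7A11 had opposite signs: 1.93-fold lower in HK3-null DMSO (−0.95, adjusted p = 0.00957) and 1.82-fold higher in HK3-null ATRA (0.87, adjusted p = 0.014). The last did not pass without Cas9 control ATRA replicate 3 (0.63, adjusted p = 0.0566) or without HK3-null ATRA replicate 1 (0.72, adjusted p = 0.0574).

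SLC3A2, the heavy chain CD98 (chromosome 11, 62880896 to 62888860, plus strand, for its MANE Select transcript), fell under ATRA in Cas9 control. It had 5517, 6010 and 5584 normalized counts in Cas9 control DMSO and 3912, 4075 and 3399 in Cas9 control ATRA. HK3-null DMSO had 4591, 4663 and 4430 and HK3-null ATRA 4559, 4639 and 3815, which overlapped. The fall was 1.51-fold in Cas9 control (log2 fold change −0.59, standard error 0.08, adjusted p = 0.000202, limma), and the change in HK3-null was −0.08 (adjusted p = 0.476). The difference between these responses was 0.51 (standard error 0.12, adjusted p = 0.0204), and it did not pass without Cas9 control DMSO replicate 2 (0.48, adjusted p = 0.0535), HK3-null ATRA replicate 2 (0.46, adjusted p = 0.0523) or HK3-null DMSO replicate 3 (0.49, adjusted p = 0.0507). SLC3A2 was 1.25-fold lower in HK3-null DMSO (−0.32, adjusted p = 0.00705). In ATRA its genotype difference was 0.19 (adjusted p = 0.0703), which passed with the replicate number as a block (adjusted p = 0.00738).

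**Figure D3:**
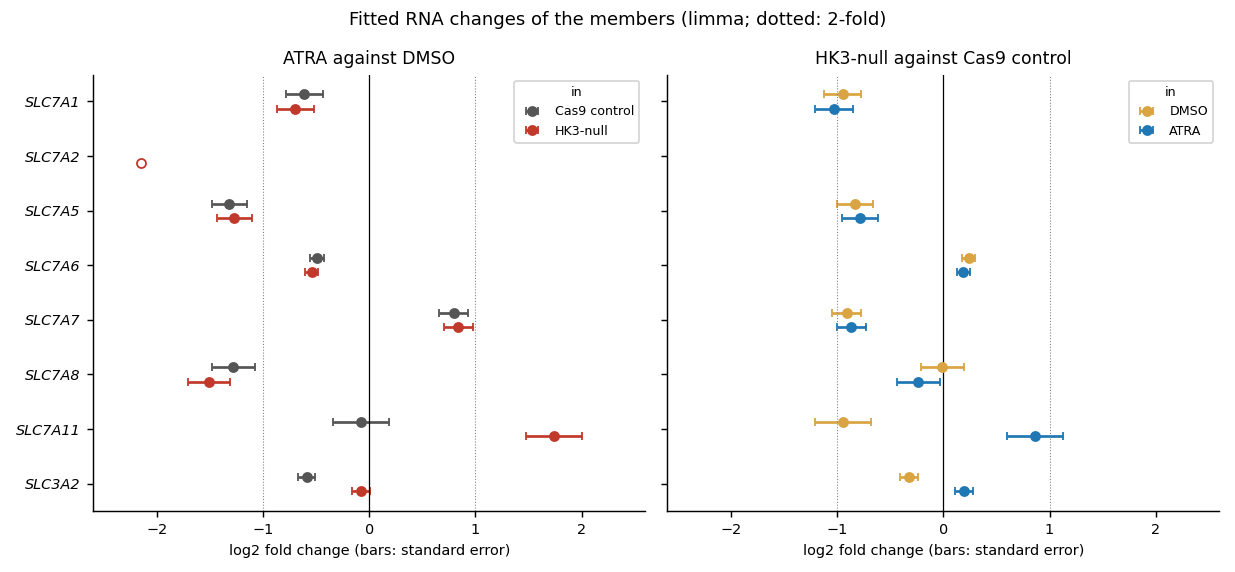
Fitted log2 fold changes (horizontal axes, bars are standard errors) of the members under ATRA in each genotype (left) and between genotypes in each treatment (right), with dotted lines at 2-fold. The open circle is SLC7A2 in HK3-null, at −2.15, drawn without its bar. SLC7A11 lies at −0.08 in Cas9 control and at 1.74 in HK3-null under ATRA, and at −0.95 in DMSO and 0.87 in ATRA between genotypes.

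Counted over the family, ATRA in Cas9 control passed for 6 of the 7 members other than SLC7A2, 5 lower and 1 higher, beside 21.3% of the 13256 tested genes that passed lower and 20.3% that passed higher. A gene is called here when it passes at an adjusted p under 0.05 and changes at least 2-fold. SLC7A5 and SLC7A8 were called lower, beside 2.78% of tested genes called lower and 6.84% called higher. In HK3-null, 6 of 8 members passed under ATRA, 4 lower and 2 higher, beside 25.1% of tested genes that passed lower and 24% that passed higher. SLC7A5 and SLC7A8 were called lower and SLC7A11 higher, beside 6.05% of tested genes called lower and 8.06% called higher. The median log2 change was −0.59 over the 7 members in Cas9 control and −0.62 over the 8 members in HK3-null, against 0 and 0.01 over all tested genes. Only the second includes SLC7A2, at −2.15, so the 2 medians are over different sets.

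Between genotypes in DMSO, 6 of 7 members passed at an adjusted p under 0.05 (limma), 5 lower and 1 higher, beside 27.1% of tested genes that passed lower and 27.9% that passed higher. At an unadjusted p under 0.05 there were also 6, beside 60% of tested genes. None reached 2-fold and so 0 were called, beside 11.1% of tested genes called higher and 8.2% called lower. The count became 3 without HK3-null DMSO replicate 2, 2 without Cas9 control DMSO replicate 3 and 1 without HK3-null DMSO replicate 1, since SLC7A1, SLC7A7 and SLC7A11 lay just under 2-fold. In ATRA 5 of 7 passed, 3 lower and 2 higher, beside 29.5% of tested genes that passed lower and 29.6% that passed higher. SLC7A1 was called lower, beside 9.93% of tested genes called lower and 11.4% called higher. SLC7A1 was not called without Cas9 control ATRA replicate 2, where the count was 0. Interactions passed for 2 of 7 members, SLC7A11 and SLC3A2, beside 9.12% of tested genes. Over all tested genes 594 interactions were above 0 and 615 below, and with the replicate block 1371 and 1527. These genotype shares stand beside the members as background, and nothing is read from them.

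The summed levels of some sets of markers of other cells or states differed between the genotypes, and those of others overlapped. The summed level of 4 eosinophil markers was 7260 to 8173 normalized counts in Cas9 control DMSO and 163448 to 171162 in HK3-null DMSO, and 273 to 410 against 43148 to 52182 in ATRA. Of 6 genes of maturation under ATRA, the summed level was 272 to 342 in Cas9 control DMSO, 17578 to 19202 in Cas9 control ATRA, 8621 to 9879 in HK3-null DMSO and 95741 to 103912 in HK3-null ATRA. Monocyte and macrophage markers summed to 34 to 53 in Cas9 control DMSO and 237 to 250 in HK3-null DMSO. In ATRA these sums overlapped, at 279 to 429 in Cas9 control against 271 to 376 in HK3-null. Single genes differed there: of 3 tested, 2 were called higher and 1 lower in HK3-null ATRA. Beside them, 11.4% of all tested genes were called higher and 9.93% lower. Of the 4 genes, 2 were at 0 in every Cas9 control DMSO library and 1 in every library of each other group. T and NK markers summed to 210 to 235 in Cas9 control DMSO and 421 to 439 in HK3-null DMSO, and to 279 to 315 against 1126 to 1223 in ATRA. Sums of B cell markers (46 to 110), epithelial markers (11 to 60) and erythroid markers (14 to 58) overlapped between the genotypes under both treatments. Of 2 tested epithelial genes, 1 was called higher in HK3-null ATRA. Of the 4 erythroid genes, 2 or 3 were at 0 in every library of a group. In bulk RNA, fewer cells of a type and less RNA per cell cannot be told apart. The part of these cells or states in the genotype values of the transporters was not tested.

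Apart from the pseudogenes SLC7A5P1 and SLC7A5P2, the remaining SLC7 and SLC3 genes were nearly silent. Of 9 listed, only SLC7A5P1 and SLC7A5P2 passed the filter on low values. SLC7A5P1 fell under ATRA from 118, 120 and 108 to 46, 39 and 43 normalized counts in HK3-null, a 2.71-fold fall (log2 fold change −1.44, adjusted p = 0.000279, limma). SLC7A5P2 was 1.67-fold lower under ATRA in Cas9 control (−0.74, adjusted p = 0.0182). Reads shared with SLC7A5, which also fell, could enter the values of both pseudogenes, and their part was not tested. SLC7A3 and SLC7A4 were at 0 in all 12 libraries. SLC7A10 reached a mean of 4 ± 1 normalized counts in HK3-null DMSO (SD, n = 3).

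In chromatin, 9 regions listed a member: 6 listed SLC7A2, and SLC7A5, SLC7A6 and SLC3A2 had 1 each. ATACseq values are fragment densities scaled by the authors to the same number of fragments, and their depth is unknown. All 8286 regions differed at least 1.65-fold between the genotypes in ATRA, which means that they were selected on it, and values in ATRA are given without a test. The HK3-null against Cas9 control difference in DMSO was fitted over 6214 regions with a mean signal above 17.1. That mean was reached by 6 member regions, 3 of them of SLC7A2, and each reached it only through the genotype in which its signal was higher. Their differences are therefore given with the standard error as a description, without a p value.

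The regions of SLC7A6 and SLC7A5 lay in introns, and the central 200 bases of each are printed from GRCh38, plus strand. Neither the amino acid response nor the antioxidant letters were in these windows, against 4.49% and 11.3% of all 8286 windows of 200 bases. Capitals mark AGATAA or its reverse complement, letters of a GATA motif, a search chosen after the letters were read, which 7.68% of all windows held.
SLC7A6 region, chr16:68289688-68289887: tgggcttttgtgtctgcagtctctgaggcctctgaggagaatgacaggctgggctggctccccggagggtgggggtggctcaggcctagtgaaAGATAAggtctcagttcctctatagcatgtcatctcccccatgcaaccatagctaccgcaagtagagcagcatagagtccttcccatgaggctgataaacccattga
SLC7A5 region, chr16:87862980-87863179: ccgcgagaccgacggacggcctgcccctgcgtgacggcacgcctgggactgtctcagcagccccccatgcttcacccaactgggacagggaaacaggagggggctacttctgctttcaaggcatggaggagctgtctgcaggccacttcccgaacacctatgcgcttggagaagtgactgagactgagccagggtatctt

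The intronic region of SLC7A6, from 68289612 to 68289964 on chromosome 16, was more open in the libraries labelled HK3-null. Its signal was 8.27 and 9.0 in Cas9 control DMSO and 75.1 and 62.3 in HK3-null DMSO, a 7.21-fold difference on the log2(signal + 1) scale (log2 fold change 2.85, standard error 0.41). In ATRA it was 7.55 and 3.55 against 33.8 and 23.1. The RNA of SLC7A6 was 1.18-fold higher in HK3-null DMSO. The region also overlaps SLC7A6OS, whose RNA difference in DMSO did not pass (log2 fold change −0.14, adjusted p = 0.112, limma).

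The intronic region of SLC7A5, from 87862919 to 87863241 on chromosome 16, was less open in HK3-null. Its signal was 40.6 and 33.4 in Cas9 control DMSO and 10.7 and 10.3 in HK3-null DMSO (log2 fold change −1.72, standard error 0.40). In ATRA the values were 28.9 and 23.0 against 6.7 and 6.2. The region lies 6428 bases downstream of the transcript start.

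A region on chromosome 11 lists SLC3A2 among 10 genes and lay in an intron of its longer transcripts. Its signal was 90.1 and 59.9 in Cas9 control DMSO and 7.43 and 23.1 in HK3-null DMSO (log2 fold change −2.38, standard error 0.40). In ATRA it was 35.0 and 37.9 against 7.14 and 9.86. SLC3A2 had 1.25-fold less RNA in HK3-null DMSO (adjusted p = 0.00705, limma). The RNA of the other genes that the region lists is not given here.

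The first of the 6 regions that list SLC7A2 covered the transcript start, from 17496735 to 17497492 on chromosome 8, and overlapped the first exon and its UTR. Its signal was 1.0 and 2.54 in Cas9 control DMSO, 1.75 and 2.42 in Cas9 control ATRA, 104.4 and 126.9 in HK3-null DMSO and 60.3 and 79.2 in HK3-null ATRA. Every HK3-null library was above every Cas9 control library, and in DMSO the log2 fold change was 5.45 (standard error 0.42). The intronic regions at 17527907 to 17528329 and 17530950 to 17531282 had 7.26-fold and 8.66-fold higher values in HK3-null DMSO on the log2(signal + 1) scale (log2 fold changes of 2.86 and 3.11). The other 3 regions were below the mean of 17.1 and were not fitted, and their ratios of HK3-null to Cas9 control in DMSO were 3.93 to 6.56. The last 2 lie beyond the end of SLC7A2 and also list PDGFRL, whose exons they overlap.

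All 6 fitted member regions were past the limits for a called region in DMSO, an adjusted p below 0.05 (limma) and 1.5-fold, and nothing is read from that count, since they passed the filter through the genotype in which they were higher. The 4 that were higher stand beside 42.7% of the tested regions called higher, and the 2 that were lower beside 43.9% called lower. Of 1154 regions given on chromosome 8, the 6 of SLC7A2 among them, 97.49% had a higher signal in HK3-null DMSO. On chromosome 16 the share was 48.2% of 191 regions and on chromosome 11 50.8% of 319. These shares count only regions selected on the genotype difference in ATRA, so they do not describe all open chromatin of a chromosome.

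Under ATRA, 8 of 9 member regions had a lower mean signal than in DMSO in Cas9 control and 8 of 9 in HK3-null, as values only. The median log2 change over all 6214 tested regions, themselves selected with the ATRA libraries, was −0.30 in Cas9 control and −0.17 in HK3-null. In Cas9 control this median was −0.08 without ATRA replicate 2 and 0.01 with quantile normalization. In HK3-null it was −0.08 with quantile normalization. The exceptions were the start region of SLC7A2 in Cas9 control, at signals of 1.0 to 2.54, and 1 intronic SLC7A2 region that was not fitted in HK3-null, at 19.5 and 8.67 in DMSO and 27.3 and 20.2 in ATRA. Cas9 control ATRA replicate 2 had the lowest sum of signal over regions, 244488 against 345345 to 390632 in the other libraries, and without it the median log2 change of the 6 fitted regions in Cas9 control was −0.57 in place of −0.81.

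**Figure D4:**
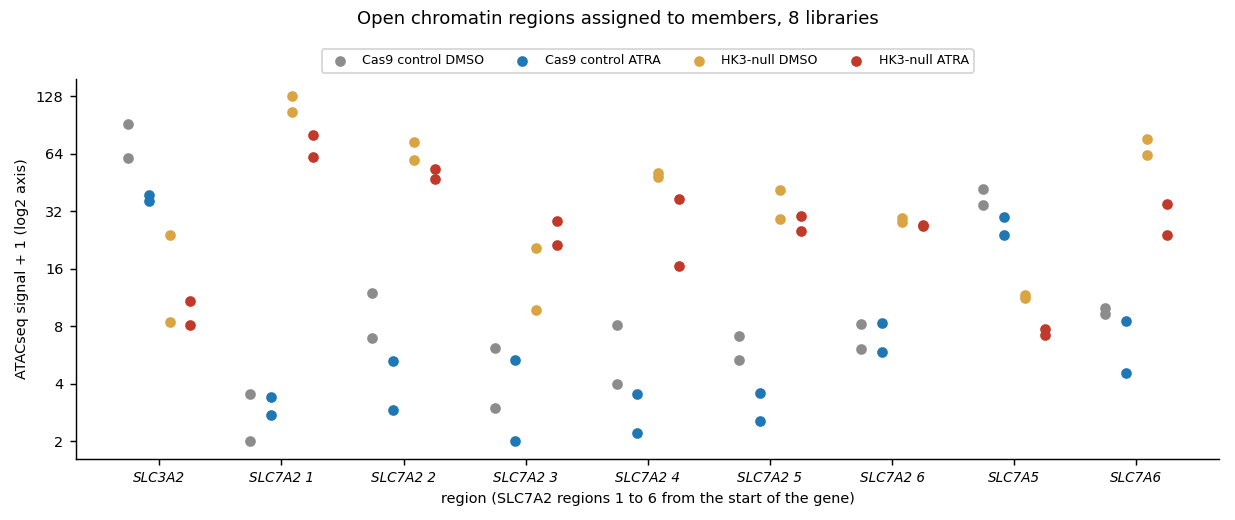
ATACseq signal plus 1 (vertical log2 axis) of the 9 regions that list a member (horizontal axis) in the 8 libraries, 2 points per group. The 6 SLC7A2 regions and the SLC7A6 region are higher in the libraries labelled HK3-null, and the SLC3A2 and SLC7A5 regions are lower.

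Other amino acid transporters of 19 tested had 0 called higher and 2 called lower under ATRA in Cas9 control, and 1 higher and 3 lower in HK3-null, with median log2 changes of −0.40 and −0.30. Beside each list median here, that of all 13256 tested genes was 0 under ATRA in Cas9 control and 0.01 in HK3-null. It was 0.0026 between genotypes in DMSO and 0.0092 in ATRA. Beside the counts called in this and the following lists, 6.84% of all tested genes were called higher and 2.78% lower under ATRA in Cas9 control. In HK3-null these shares were 8.06% and 6.05%. Between genotypes they were 11.1% and 8.2% in DMSO, and 11.4% and 9.93% in ATRA. The largest fall in Cas9 control was SLC1A3, a glutamate and aspartate transporter, from 251, 128 and 218 to 23, 12 and 15 normalized counts (log2 fold change −3.57, adjusted p = 3.39e-05, limma). In HK3-null, SLC43A2, a leucine transporter of another family, rose from 124, 141 and 92 to 303, 343 and 357 (1.51, adjusted p = 4.62e-05), and SLC16A10 had 15, 11 and 11 in DMSO and 3, 0 and 1 in ATRA. Between genotypes SLC38A5, a glutamine and neutral amino acid transporter, had 7204, 6844 and 6828 in Cas9 control DMSO and 2, 8 and 4 in HK3-null DMSO (−10.8, adjusted p = 1.46e-09), and 4258, 4008 and 3523 against 5, 5 and 5 in ATRA (−9.61, adjusted p = 3.81e-09). SLC38A10 was 2.02-fold higher in HK3-null DMSO (1.01, adjusted p = 0.000305). In all, 1 was called higher and 3 lower in DMSO, and 0 and 1 in ATRA, with medians of −0.18 and −0.14.

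Genes of arginine and polyamine metabolism, the pathway fed by the cationic transporters, included 19 tested. Under ATRA 3 were called higher and 2 lower in each genotype, with medians of 0.24 in Cas9 control and −0.02 in HK3-null. With a group at 0 in all its libraries set at a mean of 1 normalized count, the Cas9 control median was 0.09. SMOX, spermine oxidase, rose 23.2-fold in Cas9 control, from 70, 68 and 45 to 1640, 1465 and 1106 normalized counts (adjusted p = 1.7e-07, limma), and 20.8-fold in HK3-null, from 293, 251 and 172 to 5976, 5437 and 3494 (adjusted p = 1.35e-07). ASS1, argininosuccinate synthase, which makes the precursor of arginine, fell 4.62-fold in Cas9 control (adjusted p = 1.59e-07) and 4.52-fold in HK3-null (adjusted p = 1.07e-07). Between genotypes 5 were called higher and 1 lower in DMSO, and 6 and 4 in ATRA, with medians of −0.26 and −0.41. AGMAT, agmatinase, had 0 in each Cas9 control DMSO library and 67, 45 and 64 in HK3-null DMSO. GATM, which uses arginine in creatine synthesis, was 19.4-fold lower in HK3-null DMSO (log2 fold change −4.28, adjusted p = 5.11e-07) on chromosome 15, whose median was −0.94.

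Genes of cystine and glutathione metabolism, the pathway fed by SLC7A11, included 24 tested. Under ATRA 0 were called higher and 2 lower in Cas9 control, and 0 and 1 in HK3-null, with medians of −0.32 and −0.29, while SLC7A11 rose in HK3-null. One of the genes called lower in Cas9 control was CBS, at 3, 1 and 1 normalized counts in DMSO and 0 in each ATRA library, a call that rests on the value written for 0. Between genotypes 5 were called higher and 0 lower in DMSO, and 7 and 3 in ATRA, with medians of 0.25 and 0.39. CBS, which makes cystathionine on the way to cysteine, had 3, 1 and 1 normalized counts in Cas9 control DMSO and 64, 72 and 68 in HK3-null DMSO (log2 fold change 5.56, adjusted p = 3.79e-05, limma). In ATRA it was listed at 0 in each Cas9 control library and at 21, 27 and 19 in HK3-null. CHAC1, which breaks down glutathione, had 15, 49 and 46 in HK3-null DMSO and 3, 1 and 0 in HK3-null ATRA.

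Of the amino acid response, the program that ATF4 drives when amino acids run short, 24 genes were tested. Under ATRA 2 were called higher and 5 lower in Cas9 control, with a median of −0.50, and 2 higher and 10 lower in HK3-null, with a median of −0.60. ATF5 fell 3.52-fold in Cas9 control, from 20121, 19319 and 17694 to 6220, 5588 and 4546 normalized counts (adjusted p = 1.36e-05, limma). CEBPB, a transcription factor of this list and of myeloid maturation, rose 7.76-fold in Cas9 control (adjusted p = 5.12e-08) and 14.6-fold in HK3-null (adjusted p = 4.65e-09). Between genotypes 1 was called higher and 3 lower in DMSO, and 2 and 5 in ATRA, with medians of −0.36 and −0.51. PPP1R15A was 2.24-fold higher in HK3-null DMSO (adjusted p = 0.00132) and 2.54-fold higher in ATRA (adjusted p = 0.000416), and STC2, on chromosome 5 with a median of −0.75, had 23, 25 and 16 in Cas9 control DMSO and 1, 0 and 0 in HK3-null DMSO.

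Genes of leucine sensing and mTORC1, which respond to what SLC7A5 takes up, included 24 tested, and 0 were called in Cas9 control under ATRA (limma), where 13 were under an unadjusted p of 0.05, beside 49.5% of all tested genes. In HK3-null 0 were called higher and 1 lower. BCAT1, which transaminates leucine, fell 3.56-fold there, from 3402, 3353 and 3570 to 1114, 916 and 884 normalized counts (adjusted p = 6.3e-08, limma). Between genotypes 1 was called higher and 0 lower in DMSO, and 1 and 1 in ATRA. SESN1, a leucine sensor, was 2.31-fold higher in HK3-null DMSO (adjusted p = 0.000122) on chromosome 6, whose median was 0.52, and BCAT1 was 4.07-fold lower in HK3-null ATRA (adjusted p = 2.38e-08). Medians of the list lay between −0.14 and 0.10 in the 4 comparisons.

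**Figure D5:**
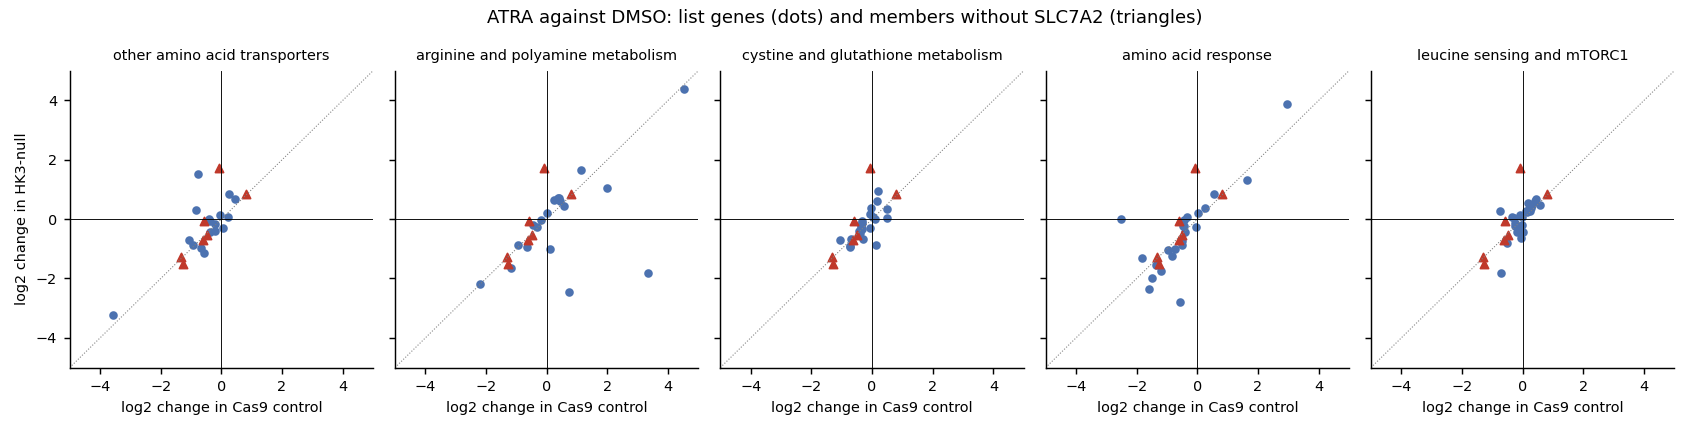
Log2 change under ATRA in Cas9 control (horizontal axes) and in HK3-null (vertical axes) of the genes of 5 lists (dots) and of the members without SLC7A2 (triangles, the same in each panel). The genotypes share no libraries, genes beyond 5 on either axis are left out, and the triangle at −0.08 and 1.74 is SLC7A11.

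The genes most like each member over the 12 libraries are given as a description, from the Pearson correlation of log2(normalized count + 1), since points share group and replicate. They were SF3A3, NSUN2 and UCHL3 for SLC7A1 (r = 0.991 to 0.992), and DGAT1, MEIOC and CDH24 for SLC7A2 (r = 0.993 to 0.994). For SLC7A5 they were TRIB3, EMILIN2 and PUS1 (r = 0.99 to 0.993). SLC7A6 was most like SCRIB, MCUR1 and TMEM150A (r = 0.982 to 0.989), SLC7A7 most like IFIT3, PTPN9 and SEC11A (r = 0.978 to 0.982), and SLC7A8 most like NCLN, PTDSS2 and CHID1 (r = 0.983 to 0.985). SLC7A11 was most like RRM2, PIWIL4 and VOPP1 (r = 0.93 to 0.966) and SLC3A2 most like SLC25A38, BSG and ARSB (r = 0.936 to 0.939). Among the members, the most alike pair was SLC7A1 and SLC7A5 (r = 0.888).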

How the data were processed

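The authors mapped directional paired-end RNAseq reads to GRCh38 and deposited, per gene, the log2 of whole counts scaled between libraries (their processing notes name DESeq2), with 0 written as the log2 of 0.001. Neither aligner nor counter is named in the sources used here. For ATACseq the authors called peaks with MACS2 and deposited a signal, the fragment density per region after reduction to equal fragments. Entries without a gene name, at most 0.00926% of counts, were dropped.

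RNA values were fitted with limma 3.58.1 (R 4.3.3; eBayes with a trend), 1 mean per group over all 12 libraries, for 13256 genes with a group mean log2 above 3 in at least 1 group, with Benjamini-Hochberg adjustment. ATACseq was fitted as log2(signal + 1) over 8 libraries, for regions whose mean signal exceeded 17.1 (percentile 25). The fit was tested on simulated data. Same-numbered RNA libraries of different groups deviated together in all 18 pairs of libraries (correlation 0.178 to 0.631), so numbers pair the RNA libraries. ATACseq numbers did not (−0.155 to 0.031). Named genes were all members, HK3, other SLC7 and SLC3 genes, the largest called rise and fall of each of 5 lists per comparison among genes whose replicates did not overlap, and the 3 genes most like each member. The sequence of the SLC3A2 region is not reported here. Marker lists are given as summed levels. Members and lists were chosen with earlier results of these data known. Alternatives were another pseudocount, quantile normalization, filters, the replicate block, the compared groups alone, looser thresholds, chromosome medians subtracted and each library left out.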

Additional observations from a re-analysis of the deposited data

Results flagged for a closer look

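ATRA responses of SLC7A11 and SLC3A2 differed between the genotypes by the interaction of genotype and treatment. For SLC7A11 the response in HK3-null exceeded that in Cas9 control by 1.81 on the log2 scale (adjusted p = 0.0106, limma), with ATRA to DMSO ratios of 2.93 to 3.65 in the 3 replicate numbers of HK3-null and 0.823 to 1.06 in Cas9 control. For SLC3A2 the difference was 0.51 (adjusted p = 0.0204), with ratios of 0.861 to 0.995 in HK3-null and 0.609 to 0.709 in Cas9 control.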

How the results depend on the processing

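The counts of members called depended on the 2-fold limit and on single libraries. At an unadjusted p under 0.05 and 1.5-fold they were 5 under ATRA in Cas9 control, 5 in HK3-null, 4 between genotypes in DMSO and 4 in ATRA, beside 21%, 28.3%, 33.6% and 37.8% of all 13256 tested genes. Quantile normalization gave 2 in DMSO, and subtracting chromosome medians gave 1 in DMSO and 0 in ATRA. Leaving out 1 library gave 0 to 3 in DMSO, 0 to 1 in ATRA and 1 to 2 for the interaction. With 10 added to the signal, the median log2 change of the 6 fitted member regions under ATRA in Cas9 control was −0.36 in place of −0.81. Values near 0 changed sign: SLC7A8 between genotypes in DMSO (0.0037 with chromosome medians subtracted, −0.19 to 0.13 without 1 library), SLC7A11 under ATRA in Cas9 control (−0.34 to 0.16), SLC3A2 under ATRA in HK3-null (−0.129 to 0.0121) and the interactions of SLC7A1 (−0.27 to 0.10), SLC7A5 (−0.057 with quantile normalization, −0.15 to 0.23 without 1 library) and SLC7A7 (−0.0772 to 0.145). The causes were not tested. Quantile normalization also moved the share of higher calls over all genes from 71.1% to 60.9% under ATRA in Cas9 control and from 49.1% to 38.1% for interactions. The replicate block moved the adjusted p of SLC3A2 between genotypes in ATRA below 0.05 (0.00738, limma), short of 2-fold, and changed the side of that threshold for no other member and comparison. In ATACseq the HK3-null groups had a same-number correlation under −0.1, and the comparison between them is given as values only. Depth before scaling is unknown, so no counting limit is given for low values.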

Other observations

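Replicate 3 had the lowest SLC7A11 level in each group, with 744, 729, 442 and 1525 normalized counts in Cas9 control DMSO, Cas9 control ATRA, HK3-null DMSO and HK3-null ATRA. SLC7A1 was also lowest in replicate 3 of each group, with 11665, 6590, 6175 and 3261. For SLC7A8, SLC7A7 and SLC3A2 the lowest replicate number varied between groups.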
